A study of Sus scrofa with 10 samples.

Results

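The genes described here are 7 genes known to be induced by glucocorticoids: FKBP5, TSC22D3, SGK1, ZBTB16, KLF9, CDKN1A and HIF3A. They were chosen by gene name and matched 8 of the 25009 gene rows in the deposited table, because CDKN1A has 2 rows. RNA was sequenced from the hypothalamus, which governs feeding, growth and the release of pituitary hormones, of 10 backcross pigs of the Iberian and Landrace breeds. One group held 5 pigs of high growth and fatness (high pigs) and the other 5 pigs of low growth and fatness (low pigs). All 10 animals were of the same cross, and neither age nor any treatment was given in the sources used here. For each gene row the table holds the authors' value of each group in FPKM, a fragment count scaled for transcript length and library size, together with its deposited bounds. Bounds follow each value in parentheses. There is no replicate check, and the depth of each sample is unknown.

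Glucocorticoids, cortisol in the pig, are released by the adrenal gland under control of the hypothalamus and pituitary. They cross the cell membrane and bind the glucocorticoid receptor, which HSP90 and its co-chaperones hold ready in the cytoplasm, and the bound receptor then switches on target genes in the nucleus. In the hypothalamus the same receptor takes part in the feedback that restrains corticotropin-releasing hormone. The 7 genes act at different points of the response. FKBP5 is an HSP90 co-chaperone that lowers the receptor's affinity for the hormone, TSC22D3 (also called GILZ) is a leucine zipper protein that restrains inflammatory signalling, and SGK1 is a kinase that regulates ion channels and transporters. ZBTB16 (PLZF) and KLF9 are zinc finger transcription factors, CDKN1A (p21) is an inhibitor of cyclin-dependent kinases, and HIF3A is a member of the hypoxia-inducible factor family that can restrain the other members.

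Between pigs of high and low growth and fatness the 7 genes were divided in direction, and none of them was called different. FKBP5, ZBTB16 and HIF3A were more abundant in the high group, at high-to-low ratios of 1.26, 1.51 and 1.62, while SGK1 and the chromosome 7 row of CDKN1A had the higher value in the low group, at low-to-high ratios of 1.42 and 1.41. KLF9 and TSC22D3 were closer between the groups, at low-to-high ratios of 1.12 and 1.06. A row was called different where the deposited intervals of the groups did not overlap. By this rule 0 of the 8 rows were called, against 0.458% of all 15281 rows tested, which are those averaging at least 1 FPKM. A z value built from the bounds also called 0 of 8 after adjustment, against 0.211% of all rows, and 0 of 8 at an unadjusted p below 0.05, against 2.12% of all rows. With a background this low and 8 rows, a count of 0 does not set the members apart from other genes.

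**Figure D1:**
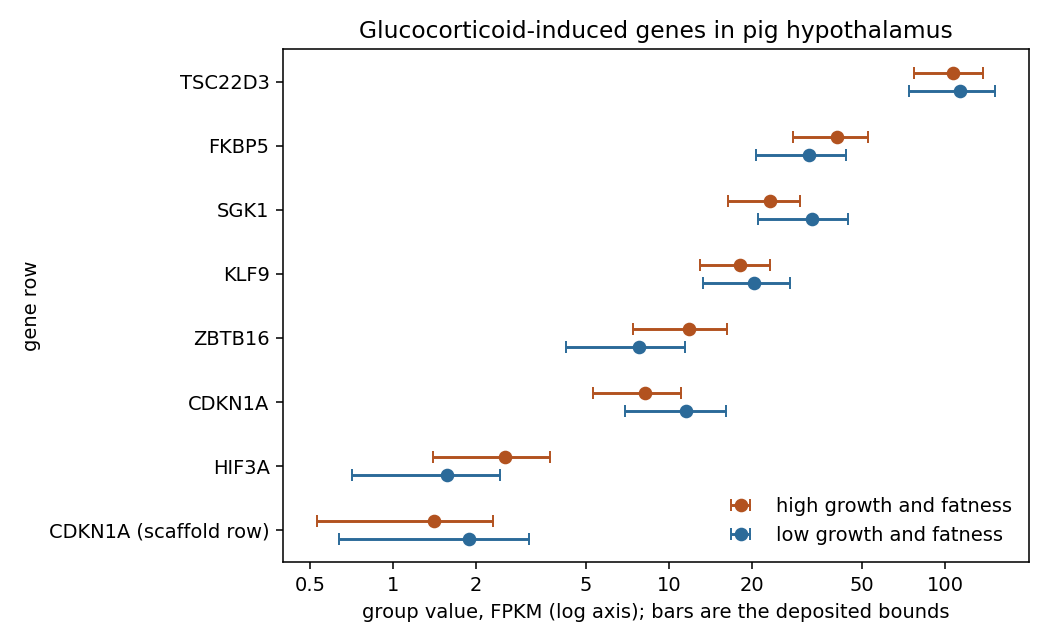
Group values of the 8 rows in FPKM (log axis) for pigs of high and low growth and fatness; points are the authors' group values and bars their deposited bounds. The bars of the groups overlap in every row, and levels run from 1.41 FPKM (CDKN1A scaffold row, high group) to 113 FPKM (TSC22D3, low group).

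FKBP5, the member that feeds back on the receptor itself, stood at 40.4 FPKM (28.2 to 52.6) in high pigs and at 32.1 FPKM (20.6 to 43.7) in low pigs. The value of each group lay inside the interval of the other. The difference in log2(FPKM + 1), high minus low, was 0.32, and 5.79% of tested rows had a larger difference. Combining the widths of both intervals, the high-to-low ratio ran from 0.786 to 2.01, which includes 1. The row (ENSSSCG00000001549) lies on chromosome 7, 36373068 to 36478480, on build Sscrofa10.2, which holds for all coordinates given here.

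TSC22D3 was the most abundant of the 7 genes, with 106.8 FPKM (77.0 to 136.6) in high pigs against 112.7 FPKM (73.8 to 151.7) in low pigs. The interval of the high group lay entirely inside that of the low group. A higher FPKM was found in 3.56% of tested rows in high pigs and in 4.02% in low pigs. Its log2 difference of -0.08 was near the median of all tested rows, -0.10, and turned positive when the columns were rescaled. Its row (ENSSSCG00000030241, chromosome X, 102611633 to 102614919) had interval widths of 27.9% and 34.6% of the value on each side, close to the smallest of any tested row (27.5% and 33.2%).

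SGK1 stood at 23.1 FPKM (16.4 to 29.9) in high pigs and at 32.8 FPKM (21.1 to 44.6) in low pigs. The low value lay above the upper bound of the high group, whereas the high value lay inside the interval of the low group. The log2 difference was -0.49, and 6.83% of tested rows had a lower one. With both widths combined the high-to-low ratio ran from 0.443 to 1.12. At 1.52 in size, its z was the farthest from 0 among the 8 rows. The row (ENSSSCG00000021443) lies on chromosome 1, 33250474 to 33256209.

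ZBTB16, a transcriptional repressor, had the largest difference of the members, 0.54. Its level was 11.8 FPKM (7.41 to 16.2) in high pigs and 7.79 FPKM (4.21 to 11.4) in low pigs. The high value lay above the upper bound of the low group, and the low value lay just inside the interval of the high group. A larger difference was found in 2.22% of tested rows, and the high-to-low ratio ran from 0.838 to 2.73 with both widths combined. Its row (ENSSSCG00000030095, chromosome 9, 46458176 to 46459448) spans 1273 bases, the shortest of the 8, so the value describes that gene model only.

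KLF9, a transcription factor, had a level of 18.1 FPKM (12.9 to 23.2) in high pigs and 20.3 FPKM (13.3 to 27.4) in low pigs. The values lay inside each other's intervals, and the log2 difference, -0.16, had 38.7% of tested rows below it and was -0.027 after quantile normalization. The ratio ran from 0.567 to 1.39. The row (ENSSSCG00000021646) lies on chromosome 1, 250030152 to 250057245.

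CDKN1A, the cell cycle inhibitor, was read from a row on chromosome 7 (ENSSSCG00000022111, 37258052 to 37267163) and from another on the unplaced scaffold GL893630.2 (ENSSSCG00000001565, 37126 to 44847). On chromosome 7 its level was 8.15 FPKM (5.28 to 11.0) in high pigs and 11.5 FPKM (6.91 to 16.0) in low pigs, a log2 difference of -0.45. On the scaffold it was at 1.41 FPKM (0.530 to 2.29) and 1.88 FPKM (0.635 to 3.12), a difference of -0.25. Both rows were lower in the high group, with overlapping intervals. The scaffold row held 14.8% of the summed FPKM of both rows in high pigs and 14.1% in low pigs. Fragments of 1 gene may be split between these rows, so the level of CDKN1A is uncertain.

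HIF3A was the least abundant of the 7 genes on placed chromosomes, at 2.54 FPKM (1.40 to 3.69) in high pigs and 1.57 FPKM (0.708 to 2.44) in low pigs. The high value lay above the upper bound of the low group, by a small margin, and the low value lay inside the interval of the high group. Its ratio, 1.62, was the largest of the members, and its log2 difference, 0.46, was exceeded in 2.90% of tested rows. The interval was also the widest of the rows on chromosomes, 45.0% of the value on each side in high pigs and 55.0% in low pigs, and the ratio ran from 0.795 to 3.29. The row (ENSSSCG00000003101) lies on chromosome 6, 47607502 to 47631684.

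**Figure D2:**
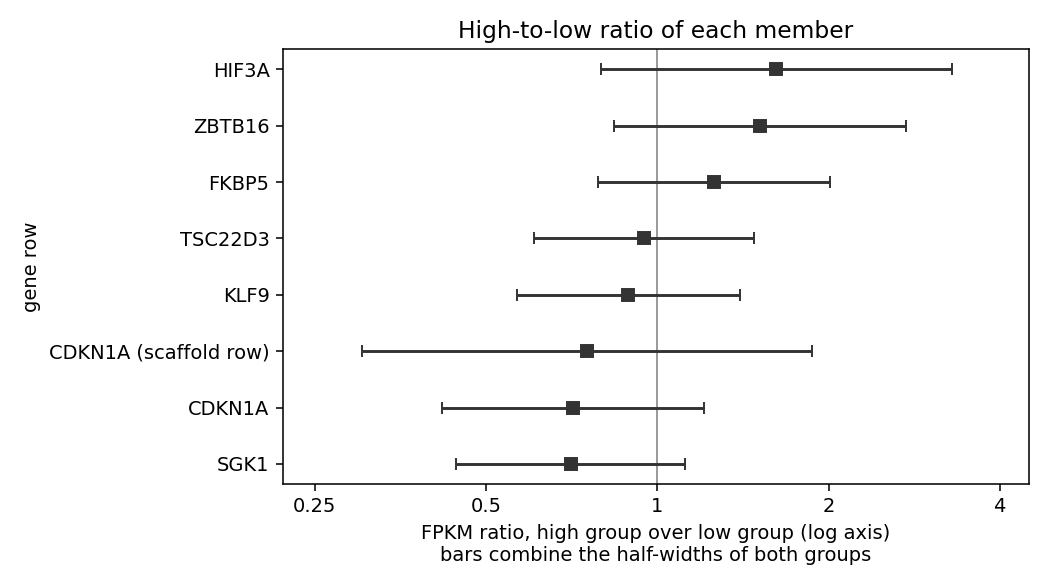
High-to-low FPKM ratio of each of the 8 rows (log axis); squares are ratios of the group values and bars combine the deposited widths of both groups on the natural log scale. The bars of all 8 rows include 1, and the ratios run from 0.704 (SGK1) to 1.62 (HIF3A).

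The order of the 7 genes by FPKM, with CDKN1A taken from chromosome 7, was the same in both groups at its ends. KLF9 was at place 4 in both groups, and the other genes in between changed places. TSC22D3 came first and HIF3A last in both groups, and neither interval overlapped that of the next gene in the order. In the high group FKBP5 came next and then SGK1, at a FKBP5-to-SGK1 ratio of 1.75, while in the low group SGK1 and FKBP5 were level, at a ratio of 0.979. ZBTB16 stood above CDKN1A in the high group, at a ratio of 1.45, and below it in the low group, at 0.680. The intervals of FKBP5 and SGK1, and those of ZBTB16 and CDKN1A, overlapped within each group, so neither change of place exceeded the deposited bounds.

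Counts by direction should be read against the whole table, in which low pigs had the higher value in 67.7% of tested rows and high pigs in 32.3%. Among the 8 member rows it was 5 and 3, and their median log2 difference was -0.12, against -0.10 for all tested rows. As deposited, the middle of the members was thus near the middle of the table, while single members lay to both sides. With CDKN1A counted once, 4 of the 7 genes had the higher value in low pigs and the median was -0.08. After quantile normalization the median over the 8 rows was 0.068, against -0.0023 for all tested rows. The 5th and 95th percentiles of all tested rows were -0.56 and 0.35. ZBTB16 and HIF3A were above the 95th percentile, and no member was below the 5th.

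**Figure D3:**
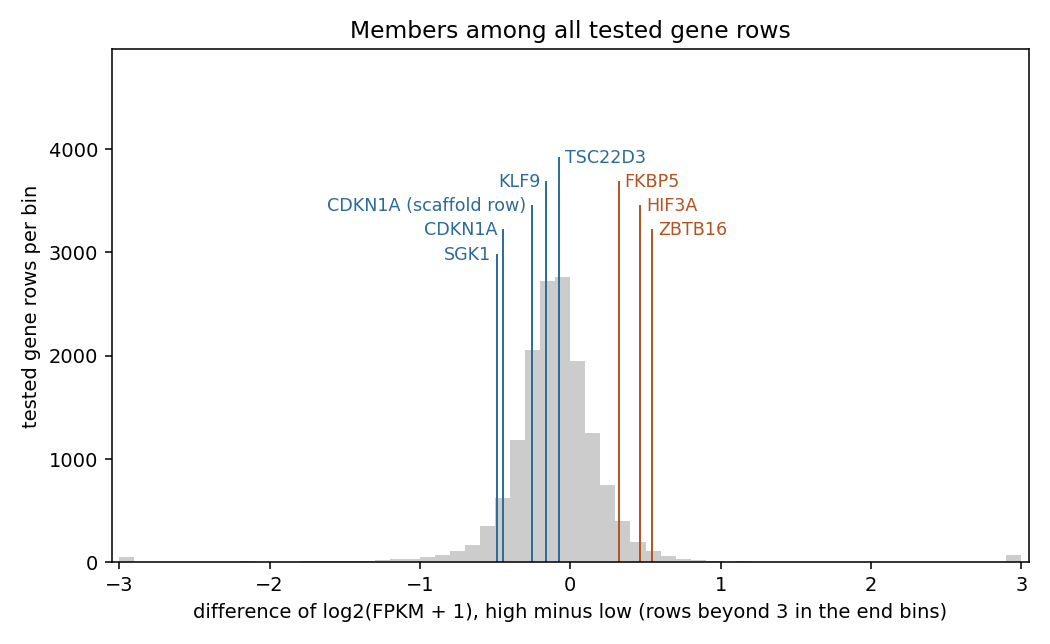
Number of tested rows per bin of the difference in log2(FPKM + 1), high minus low, with a vertical line at each member row. FKBP5, HIF3A and ZBTB16 stand in the upper tail, SGK1 and CDKN1A (chromosome 7) towards the lower tail, and TSC22D3 and KLF9 near the median of -0.10.

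FKBP5 and CDKN1A lie on the same chromosome, 7, with 779571 bases and 15 rows between them. The 8 tested rows in between had differences of -0.39 to 0.01, 1 higher in the high group, and 0 were called.

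The receptors that carry the response were almost level between the groups. The glucocorticoid receptor NR3C1 was at 11.7 FPKM (8.15 to 15.3) in high pigs and 12.2 FPKM (7.83 to 16.5) in low pigs. The mineralocorticoid receptor NR3C2, which binds the same hormone with higher affinity, was at 1.79 and 1.88 FPKM. Their median difference of -0.05 turned to 0.04 with median-of-ratios scaling and to 0.016 with quantile normalization. HSD11B1, which regenerates active glucocorticoid inside cells, was at 13.2 and 15.0 FPKM on an unplaced scaffold, while HSD11B2, which inactivates it, was below the filter, at 0.102 and 0.115 FPKM. SRD5A1, which reduces steroids including glucocorticoids, was at 16.3 and 17.1 FPKM. The intervals overlapped for each of these genes.

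Chaperones of the receptor complex were lower in the high group in 8 of 8 tested genes, 0 of them called, with a median of -0.29. The count was 7 of 8 with median-of-ratios scaling and 5 of 8 with quantile normalization. PTGES3 (p23), which stabilises the HSP90 complex, was at 79.5 against 109 FPKM, and ST13, an HSP70 co-chaperone, at 133 against 172 FPKM. Coregulators of the receptor, such as the Mediator subunit MED1 (6.09 against 6.41 FPKM) and the remodelling ATPase SMARCA4 (18.4 against 20.7 FPKM), had a median of -0.02 (0.08 under each scaling), and 0 of 8 were called.

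Other genes known to be induced by glucocorticoids were as divided as the members. Of 22 listed, 19 were matched and 18 passed the filter, 8 with the higher value in high pigs and 10 in low pigs, with a median of -0.07 and 0 called. The median was 0.036 and 0.045 under the respective scalings. At an unadjusted p of z below 0.05, 2 of the 18 passed, DUSP1 and ANGPTL4, against 2.12% of all rows. PER1, a clock gene with a glucocorticoid response element, was at 16.7 FPKM (11.9 to 21.6) in high pigs and 11.6 FPKM (7.54 to 15.6) in low pigs, and 2.56% of tested rows had a larger difference. PDK4, a kinase that restrains pyruvate dehydrogenase, was at 58.2 against 43.3 FPKM. DUSP1, a phosphatase of MAP kinases, went the other way, at 16.5 FPKM (11.3 to 21.6) in high pigs and 32.3 FPKM (20.1 to 44.6) in low pigs, with 1.86% of tested rows below its difference of -0.93. The transcription factor CEBPD was at 3.94 against 7.46 FPKM, and the lipase inhibitor ANGPTL4 at 3.87 against 7.17 FPKM.

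DUSP1 is also an immediate early gene, transcribed rapidly after stimulation. In the list of other immediate early genes 6 of 6 tested were lower in the high group, with a median of -0.87. The intervals did not overlap for BTG2 (10.5 FPKM, 7.11 to 13.9, against 33.7 FPKM, 21.0 to 46.5) and JUNB (2.68 FPKM, 1.45 to 3.91, against 8.80 FPKM, 4.80 to 12.8), and BTG2 alone of the 6 was called by z after adjustment. BTG2 is a target of p53 as well, as CDKN1A is. It was the 1 called gene among 7 tested p53 targets, which had a median of -0.16 and 6 genes lower in the high group. Over all tested rows, 0.458% were called by intervals, 0.211% were called by z after adjustment, and 67.7% were lower in the high group. The part of immediate early genes in the values of SGK1, CDKN1A and DUSP1 was not tested.

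Adding both lists of induced genes gives 25 genes tested, 11 with the higher value in high pigs and 14 in low pigs, with a median of -0.07. In 15 of the 25 the value of the low group lay inside the interval of the high group. The reverse was not counted for these genes, nor was the share over all tested rows. Hormones of the stress axis were not called either. CRH, corticotropin-releasing hormone, was at 2.81 FPKM (1.18 to 4.44) and 3.03 FPKM (1.23 to 4.83), AVP at 472 against 354 FPKM and POMC, the precursor of corticotropin, at 84.0 against 110 FPKM. Anterior pituitary markers were also lower in the high group, at a summed 302 against 639 FPKM. PRL made up most of each sum, at 279 FPKM (174 to 384) against 570 FPKM (102 to 1039), with overlapping intervals. The tissue source of POMC was not tested.

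**Figure D4:**
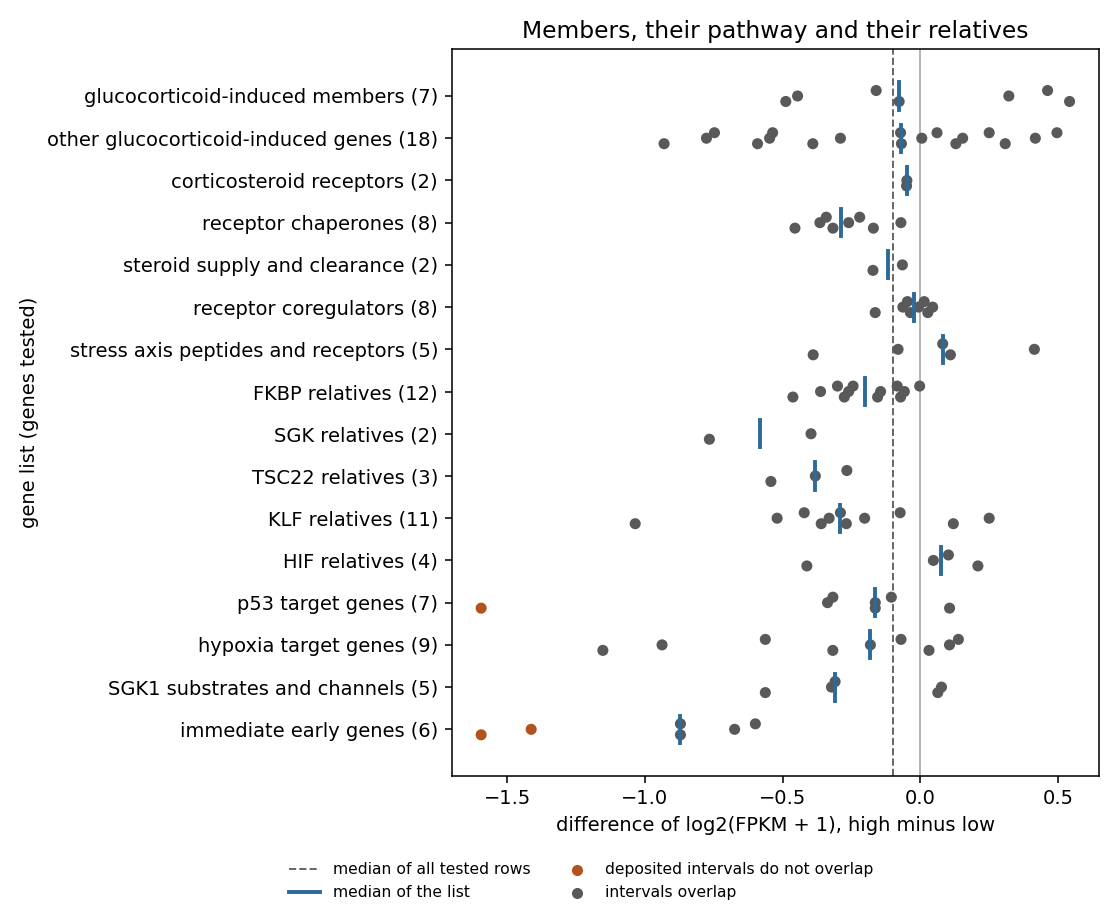
Difference in log2(FPKM + 1), high minus low, of each tested gene (points) in the members' list, pathway lists and lists of relatives, with 1 row per gene; the bar is the median of the list and the dashed line that of all tested rows. Members and other induced genes spread to both sides of 0, and the points whose deposited intervals do not overlap are BTG2, which stands in 2 lists, and JUNB.

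Most listed relatives of FKBP5, SGK1, TSC22D3 and KLF9 were lower in the high group, while those of HIF3A were divided. Of the FKBP family, 12 of 12 tested relatives of FKBP5 were lower in the high group as deposited, 8 of 12 with median-of-ratios scaling and 7 of 12 with quantile normalization, with a median of -0.20 as deposited and 0 called. The largest differences among them were those of the endoplasmic reticulum members FKBP7 (2.55 against 3.89 FPKM) and FKBP14 (17.1 against 22.2 FPKM). SGK2 (3.79 against 7.15 FPKM) and SGK3 (4.24 against 5.90 FPKM) had lower values in the high group, as SGK1 did. Listed substrates and channels of SGK1 were divided, with 3 of 5 tested genes lower in the high group, 2 higher and 0 called. The 2 with the largest differences were both lower. NDRG1, a substrate of SGK1, was at 57.9 against 86.0 FPKM, and SLC9A3R2, a scaffold protein that links SGK1 to ion transporters, at 11.3 against 14.4 FPKM.

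TSC22D1 (116 against 151 FPKM) and TSC22D4 (4.94 against 7.65 FPKM) had lower values in the high group, where TSC22D3 was nearly level. Among 11 tested relatives of KLF9, 9 were lower in the high group, the farthest being KLF2 (5.11 against 11.5 FPKM), a factor of endothelium and leukocytes, and KLF5 (2.78 against 4.42 FPKM), and 0 were called. Median-of-ratios scaling left 8 of the 11 lower there. For HIF3A, 3 of 4 relatives were higher in the high group, among them ARNT2 (30.9 against 26.6 FPKM), whereas EPAS1 (HIF-2 alpha) was at 29.2 against 39.1 FPKM. Hypoxia target genes had a median of -0.18 over 9 tested genes with 0 called (0.0028 with quantile normalization), and those farthest from 0 were the peptide ADM (2.10 against 5.88 FPKM) and the prolyl hydroxylase EGLN3 (2.75 against 6.19 FPKM). The 2 listed relatives of CDKN1A were not matched to a row and were not analysed here.

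With 2 values per gene, likeness of pattern is only nearness of level in both groups. On the log2(FPKM + 1) scale the named genes nearest to FKBP5 were GAD1 (39.2 and 32.6 FPKM), WDR6 (41.8 and 32.2 FPKM) and RBM5 (40.5 and 33.4 FPKM). Those nearest to ZBTB16 were MAPK12 (12.04 and 7.83 FPKM), TRPC1 (11.5 and 7.69 FPKM) and CACNA1A (12.4 and 7.64 FPKM). Distances ran from 0.028 to 0.073, and 5 named rows lay within 0.1 of each gene.

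Most marker lists were lower in the high group, while the members were divided. Hypothalamic neuron markers were present, with 9 of 10 above the filter and 7 of the 9 higher in the high group, at a summed level of 965 FPKM against 731 FPKM. AVP, at 472 against 354 FPKM, made up the largest part of each sum, and POMC was 1 of the 2 lower in the high group. Lower in the high group were 7 of 7 tested oligodendrocyte markers (2794 against 4341 FPKM), 6 of 6 microglial markers (248 against 353 FPKM), 8 of 8 mural cell and fibroblast markers (76.8 against 169 FPKM), 5 of 5 endothelial markers (31.5 against 38.1 FPKM) and 4 of 5 astrocyte markers (908 against 1055 FPKM). After either scaling it was 2 of 5 for the astrocyte list. Blood markers (160 against 390 FPKM), anterior pituitary markers (302 against 639 FPKM) and choroid plexus markers (311 against 468 FPKM) were lower there as well, in 3 of 3, 4 of 4 and 4 of 4 tested genes. PRL made up most of the pituitary sums. MBP made up most of the oligodendrocyte sums, at 2017 FPKM (1316 to 2719) against 2904 FPKM (1181 to 4627), with overlapping intervals. As deposited, the intervals did not overlap for 4 mural cell and fibroblast markers (ACTA2, COL1A2, COL3A1 and DCN) and 2 blood markers (HBA and HBB). In the other marker lists 0 were called, and the share over all tested rows was 0.458%. Under each scaling 3 mural cell and fibroblast markers were called. Median-of-ratios scaling left 2 blood markers called. Quantile normalization left 1, and called 1 hypothalamic neuron marker. By z after adjustment, as deposited, ACTA2, COL3A1 and HBA alone of the markers were called, against 0.211% of all rows. COL1A2, DCN and HBB were not called by z. GFAP had no estimate in at least 1 group and was left out. As deposited, SGK1, CDKN1A, KLF9 and TSC22D3 were lower in the high group, as were 67.7% of all tested rows. FKBP5, ZBTB16 and HIF3A were higher there, as were most tested hypothalamic neuron markers. The part of cell composition in any of these values was not tested, and in bulk tissue fewer cells of a type and less RNA per cell cannot be told apart.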

How the data were processed

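RNA from the hypothalamus of 10 pigs was made into paired-end TruSeq libraries and run on a HiSeq 2000, several libraries per lane, per the labels' protocols. Build Sscrofa10.2, the aligner TopHat2 2.0.5 with Bowtie2, Cufflinks 2.0.2, CASAVA and the read quality tools FastQC and Trim Galore are listed, without settings, per the submitters' processing notes. The FPKM values are those the authors deposited for each group, with bounds and a status per row, per the file headers. The sources used here do not state the confidence level of those bounds. Neither single animals nor read counts entered, so depth is unknown and no test across animals was made. Per-sample columns left unused numbered 0.

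Rows whose status was not OK in either or both groups (58) were left out, and those averaging at least 1 FPKM were tested (15281). Differences are log2(FPKM + 1), high minus low, which understates changes at low levels. A row was called where the deposited intervals did not overlap. As an alternative, z was the log ratio of the group values divided by its SD, with the width of an interval on each side set to 2 SD, adjusted by Benjamini-Hochberg at 0.05 over all rows with a value above 0 in both groups (15156). The range of a ratio rests on the same spread, taken as 2 SD to each side. Both rules were tested on simulated data. Its noise was drawn from the same widths, taken as 2 SD, so it cannot show whether that setting holds for these data. Analyses used Python 3.11.15, numpy 2.4.6, pandas 2.3.3, scipy 1.17.1 and matplotlib 3.10.9.

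Genes were matched by the file's name or, where it gives none, by a reference table of identifiers (963 rows). In lists a gene had 1 row, on a placed chromosome first and then the higher mean. The members and lists were chosen with earlier results of these data known. Genes named are all members, the called genes of each list (for marker lists only those) or otherwise the 2 with the largest difference, and NR3C1, NR3C2, HSD11B1, HSD11B2, CRH, PER1 and DUSP1. PDK4 and ANGPTL4 were named after their values were seen. Alternatives were other pseudocounts (0.1 and 0.5), no filter, a mean of at least 5 FPKM, median-of-ratios scaling, quantile normalization, z and 1 row per symbol on placed chromosomes.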

Additional observations from a re-analysis of the deposited data

How the results depend on the processing

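No member row was called under any of the 8 alternatives, and 7 of the 8 rows kept their direction under all that included them. TSC22D3 turned from -0.08 to 0.038 after median-of-ratios scaling and to 0.16 after quantile normalization. The median of the members turned from -0.12 to 0.068 after quantile normalization. That of the other induced genes turned from -0.07 to 0.036 with median-of-ratios scaling and to 0.045 with quantile normalization. Under them the median over all rows went from -0.10 to 0.00073 and -0.0023, and the cause of the remaining shift was not tested. ZBTB16 ran from 0.54 to 0.65, HIF3A from 0.46 to 0.66, FKBP5 from 0.32 to 0.47, SGK1 from -0.50 to -0.34, CDKN1A from -0.49 to -0.34 on chromosome 7 and from -0.39 to -0.18 on the scaffold, and KLF9 from -0.17 to -0.027. At a mean of at least 5 FPKM, HIF3A and the scaffold row of CDKN1A were not tested. Calls over all rows, 70 by intervals that did not overlap, were 32 by z, which is adjusted for multiple tests. No paired analysis was possible because no values of single animals were at hand, and leave-one-out fits were not run for that reason. The limits set by depth were not measured, as depth is unknown.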
